A study of Mus musculus with 3 samples.

Results

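Fibroblasts low in tenogenic markers were 395 of the 4978 cells that passed the cell filter in the tendon injury library (7.93%, Clopper-Pearson 95% interval 7.20 to 8.72), which held 5629 of the 9725 cell barcodes of the series. A cell was counted when at least 200 genes were detected and no more than 20% of its transcripts were mitochondrial, when *Col1a1*, *Col1a2*, *Col3a1* and *Dcn* together made up at least 1% of its unique molecular identifiers (UMIs, the tags that count single captured transcripts), when *Pdgfra* had at least 1 UMI, when *Ptprc* and *Cdh5* had none, and when the tenocyte genes *Tnmd*, *Fmod*, *Thbs4* and *Kera* together stayed below 5 UMIs per 10000. The cells were therefore chosen by measured values of those 11 genes, which are given here only as a description. The study examined male C57BL/6J mice, 10 weeks old, at 3 days after burn/tenotomy, an injury that joins a dorsal burn with transection of the Achilles tendon and leads to heterotopic ossification (HO). Single-cell RNA-Seq (10x Genomics 3′ v3) was performed on unsorted cells of the bone marrow, of the blood after Ficoll separation, and of the tendon injury site after enzymatic digestion, with 1 library for each tissue. All 3 libraries came from injured animals, none was from an uninjured tendon, and the number of mice behind each library was not given in the sources used here. Since each tissue was a single library, no difference below was tested, and the cells are not replicates of the injury.

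Fibroblasts are the cells that build and remodel collagen-rich connective tissue, and PDGFRα, the receptor for platelet-derived growth factors, is carried by most of them. Within tendon, tenocytes are the specialised fibroblasts that make *Tnmd*, *Fmod*, *Thbs4* and *Kera* under the tendon transcription factor scleraxis (*Scx*), whereas the fibroblasts of the sheath and of the surrounding loose tissue carry PDGFRα with little of this program. Fibroblasts near a wound are known to answer interleukin-1 and tumor necrosis factor through NF-kB and C/EBP transcription factors, secreting chemokines that draw neutrophils and monocytes, acute phase proteins, and hyaluronan-binding proteins.

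The promoters of *Ptx3* and *Sfrp2*, which mark these cells, of the acute phase gene *Saa3*, and of the neutrophil chemokine *Cxcl1* are shown because these genes recur in the results below. Each is the 250 bases before the RefSeq start on the strand of the gene, from the RefSeq annotation of GRCm38.p6, and lies at chr3:66219637-66219886 (plus strand), chr3:83766071-83766320 (plus strand), chr7:46715677-46715926 (minus strand), and chr5:90890995-90891244 (plus strand), respectively. Capitals mark a match to the C/EBP motif TTGCNNAA on either strand in the first 3 sequences and to the NF-kB motif in the last.
Ptx3 promoter: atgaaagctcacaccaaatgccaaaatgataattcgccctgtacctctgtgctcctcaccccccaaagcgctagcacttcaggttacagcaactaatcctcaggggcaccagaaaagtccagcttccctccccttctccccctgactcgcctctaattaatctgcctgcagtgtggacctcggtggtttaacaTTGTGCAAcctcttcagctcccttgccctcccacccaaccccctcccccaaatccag
Sfrp2 promoter: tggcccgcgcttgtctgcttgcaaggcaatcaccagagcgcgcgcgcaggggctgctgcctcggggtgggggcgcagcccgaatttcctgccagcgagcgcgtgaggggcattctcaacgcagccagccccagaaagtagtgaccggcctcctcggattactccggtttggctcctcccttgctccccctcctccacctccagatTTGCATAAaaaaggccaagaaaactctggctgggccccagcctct
Saa3 promoter: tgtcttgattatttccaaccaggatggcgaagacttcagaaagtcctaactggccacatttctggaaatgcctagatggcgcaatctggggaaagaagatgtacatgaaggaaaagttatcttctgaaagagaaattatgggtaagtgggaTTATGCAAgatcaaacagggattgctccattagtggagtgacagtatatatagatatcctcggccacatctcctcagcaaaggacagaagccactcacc
Cxcl1 promoter: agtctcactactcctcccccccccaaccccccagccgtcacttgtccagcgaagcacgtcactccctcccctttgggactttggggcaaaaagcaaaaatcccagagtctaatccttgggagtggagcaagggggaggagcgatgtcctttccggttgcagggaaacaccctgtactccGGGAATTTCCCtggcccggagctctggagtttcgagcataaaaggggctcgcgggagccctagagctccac
The C/EBP match was at bases -57 to -50 for *Ptx3*, -45 to -38 for *Sfrp2*, and -99 to -92 for *Saa3*, counted from the start, while *Cxcl1* held overlapping NF-kB matches at -71 to -62 and, on the opposite strand, at -70 to -61. Of 16 genes looked up, 10 had a promoter entry. A C/EBP match was found in 5 of these 10 (also in *Pdgfra*, at -118 to -111, and in 1 promoter of *Il1rl1*, at -34 to -27), and an NF-kB match in 1 of 10, while 9.57% and 1.19% of 32536 promoters of the same length held them. A match describes the letters of this window and nothing about the binding of a factor.

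The 395 fibroblasts were deeply sampled. Their median was 33986 UMIs and 5149 genes per cell (range of UMIs 720 to 125515, median 3.45% mitochondrial), against 11687 UMIs in the 4583 other tendon cells that passed the filter and 11546 in the 2776 cells with at least 2 *Ptprc* UMIs, which serve below as the immune background. In all, 14441195 of the 90621052 UMIs of the tendon injury library came from these fibroblasts. The bone marrow library held 49580625 UMIs and the blood library 22542581. No cell met the rule among 1840 cells of the bone marrow, which allows a share of up to 0.163% when 3 cells are taken as the limit for a count of 0, or among 2184 cells of the blood, which allows up to 0.137%. No cell there met the collagen part of the rule either, and only the tendon injury tissue had been digested with enzymes. The tendon injury library shared 1 barcode with the bone marrow library and 6 with the blood library, none of them of a fibroblast.

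Cells that met every part of the rule but the tenogenic one numbered 488, of which the fibroblasts low in tenogenic markers were 80.9% (77.2 to 84.3). The remaining 93 cells, with 5 or more tenogenic UMIs per 10000, are called tenogenic-high fibroblasts, and their depth was close (median 36364 UMIs). In 260 of the 395 cells (65.8%) none of the 4 tenogenic genes had a UMI. Around the tenogenic threshold, the 3 cells just inside held 4.63, 4.64 and 4.95 UMIs per 10000 and the 3 just outside 5.19, 5.26 and 5.37. Around the collagen threshold, the 3 cells just inside held 1.001 to 1.010% and the 3 just outside 0.985 to 0.993%. A single *Pdgfra* UMI admitted 28 of the cells, 47 cells were left out only for having none, and 57 were left out only for a *Ptprc* or *Cdh5* UMI.

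Levels are given in CPM, the summed UMIs of a gene over a group of cells per 1000000 UMIs of those cells, with an exact Poisson 95% interval. They are 3′ counts and were not scaled by transcript length. Intervals and floors throughout cover counting error only, not differences between animals or libraries. For levels and ratios they also leave out the uneven spread of a gene's UMIs over the cells of a group. *Pdgfra* (ENSMUSG00000029231, GRCm38 chr5:75152292-75198215) stood at 258 CPM (250 to 266) and *Dcn*, which encodes the collagen-binding proteoglycan decorin, at 3995, both by construction of the group. *Lum* (chr10:97565128-97572703), which encodes lumican, a proteoglycan of collagen fibrils that the rule did not use, stood at 519 (507 to 530) and had a UMI in 95.2% of the cells. The tenogenic-high fibroblasts held more of it, 815 (786 to 845). After each cell was thinned to 2000 UMIs, *Lum* was found in 57.3% of the 389 fibroblasts deep enough. The shares were 60.2% of the 93 tenogenic-high cells and 0.660% of immune cells. *Lum* is itself a marker of the label, and the immune cells were chosen by *Ptprc*. The shares therefore describe the cells and are no check of the label.

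*Ptx3* and *Sfrp2* were higher in the fibroblasts low in tenogenic markers than in the tenogenic-high fibroblasts. *Ptx3* (chr3:66219910-66225805) encodes pentraxin 3, a soluble pattern recognition molecule that stromal cells release in inflammation. It stood at 755 CPM (741 to 769) against 268 (251 to 285), a log2 ratio of 1.50 (1.40 to 1.59), and it had a UMI in 83.3% of the cells before thinning and in 50.4% (45.3 to 55.5) after. The corresponding thinned shares were 29.0% (20.1 to 39.4) in tenogenic-high cells and 0.807% in immune cells. *Sfrp2* (chr3:83766321-83774316), whose product is a secreted modulator of Wnt signaling, stood at 340 (331 to 350) against 149 (137 to 162), a log2 ratio of 1.19 (1.06 to 1.32). It was found in 53.7% of the cells before thinning and in 27.8% after, against 14.0% of tenogenic-high and 0.514% of immune cells after thinning. Over single cells, *Ptx3* had a median of 3.44 UMIs per 10000 with quartiles of 0.717 and 9.10, whereas *Sfrp2* had a median of 0.253 and its highest 10% of cells held 65.6% of its UMIs. *Ptx3* was thus broadly spread and *Sfrp2* concentrated in some of the fibroblasts.

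**Figure D1:**
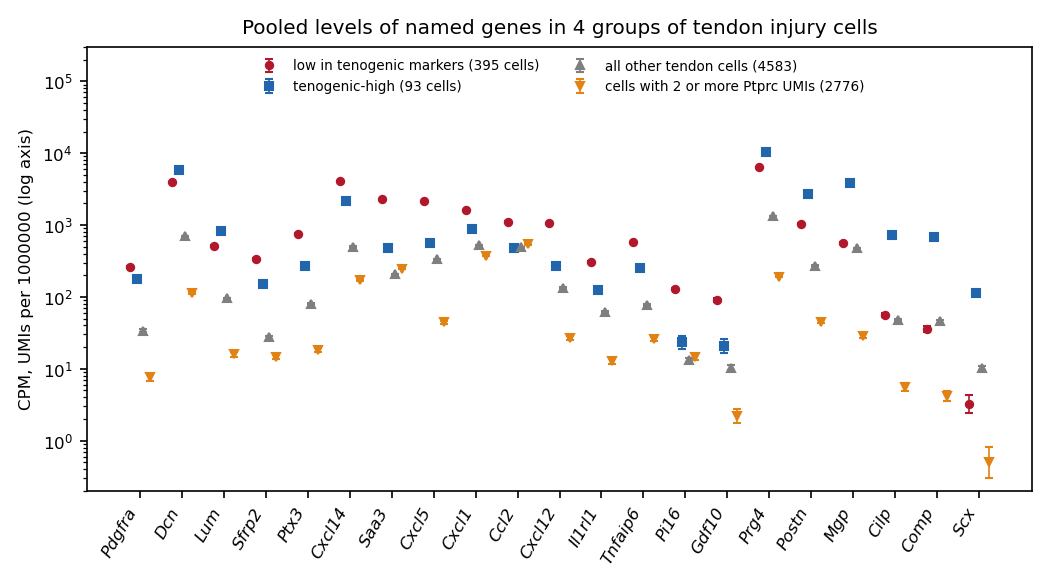
Pooled levels of 21 named genes in CPM (log axis) in the fibroblasts low in tenogenic markers, the tenogenic-high fibroblasts, all other tendon cells, and cells with at least 2 *Ptprc* UMIs; error bars are exact Poisson 95% intervals for counting error only, and a point at 0 is not drawn. *Cxcl5* (2134 against 554) sits above the tenogenic-high level and *Scx* (3.25 against 112) far below it.

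**Figure D2:**
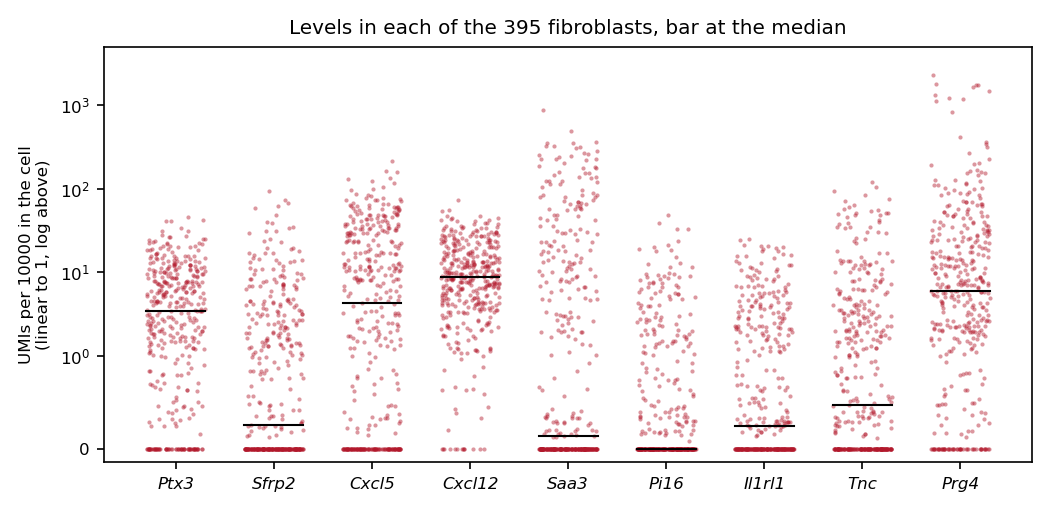
Levels of 9 genes in each of the 395 fibroblasts in UMIs per 10000 of the cell (linear up to 1, logarithmic above), 1 point a cell, with a bar at the median. *Ptx3* and *Cxcl12* are spread over most cells, while *Saa3* and *Pi16* are at or near 0 in many cells and high in others.

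Markers of other cell types were low. The neutrophil gene *S100a8* stood at 19.8 CPM against 5357 in immune cells, the macrophage and neutrophil gene *Lyz2* at 24.2 against 8485, the keratinocyte gene *Krt14* at 16.9 against 1991 in all other tendon cells, and the endothelial gene *Pecam1* at 2.35 against 102. Tenogenic-high and mural cells held like amounts, namely 16.4 and 16.2 for *S100a8* and 22.4 and 20.7 for *Krt14*. Summed over the lists, 6 neutrophil markers came to 49.1, 10 macrophage markers to 59.6 (led by *Lyz2*), 7 endothelial markers to 10.4 (led by *Egfl7* at 6.99), 8 mural markers to 42.0 (led by *Abcc9* at 15.6), 7 keratinocyte markers to 36.5, 7 Schwann cell and nerve markers to 5.54, and 7 skeletal muscle markers to 0.623, with 5 of the 7 muscle markers at 0. The mural sum was 49.8 in the tenogenic-high fibroblasts, but of the 6 mural markers with at least 20 UMIs, *Abcc9* (15.6 against 3.28), *Kcnj8* (7.55 against 2.46) and *Rgs5* (4.57 against 1.09, but with a log2 ratio of -0.55 with the tenogenic threshold at 2) were at least 2-fold higher in the fibroblasts low in tenogenic markers and *Cspg4* (7.69 against 36.9) at least 2-fold lower, and the part of mural transcripts in the comparison with tenogenic-high cells was not tested. *Abcc9*, *Kcnj8* and *Rgs5* reached that minimum only through the fibroblasts low in tenogenic markers. The 5 erythroid markers summed to 0.208 against 60.2 in the tenogenic-high fibroblasts, where *Hbb-bs*, a hemoglobin gene, had 186 UMIs in 1.08% of the cells against 2 UMIs in the fibroblasts low in tenogenic markers, an order that turned with the tenogenic threshold at 10. The 5 lymphocyte markers found, of 6 listed, summed to 1.32 against 0.274. *Sp7*, a transcription factor required for bone-forming osteoblasts, had 0 UMIs.

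The question put to the 2 groups of *Pdgfra*+ fibroblasts was which genes other than the rule's own set them apart. Of 11857 genes with at least 20 UMIs in both groups together, 627 (5.29%) were at least 2-fold higher in the fibroblasts low in tenogenic markers and 443 (3.74%) at least 2-fold lower, with a median log2 ratio of 0.06 over all of them. The counts of each gene list below stand beside these shares. Of these genes, 8942 had at least 20 UMIs in each group. A gene that reached the minimum through the tenogenic-high cells alone had to be lower. A gene that reached it only through the fibroblasts low in tenogenic markers, which held more UMIs in all, did not have to differ. The counts are therefore descriptions. Ratios carry an exact 95% interval, from a binomial distribution of the gene's UMIs over the groups compared.

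Chemokine genes were abundant in these fibroblasts. The 17 listed chemokine genes summed to 11266 CPM, against 5341 in the tenogenic-high fibroblasts, with 6 of 17 at least 2-fold higher, none at least 2-fold lower, and a median log2 ratio of 0.88. Of the 6, *Cxcl13* and *Ccl20* reached the minimum only through the fibroblasts low in tenogenic markers. *Cxcl5* (chr5:90759360-90761624), a ligand of the neutrophil receptor CXCR2, stood at 2134 (2110 to 2158) against 554 (530 to 579), a log2 ratio of 1.94 (1.88 to 2.01). That ratio was 1.32 with the tenogenic threshold at 2 and 2.55 with the collagen threshold at 2%. *Cxcl12* (chr6:117168535-117181367), the ligand of CXCR4 that retains neutrophils and hematopoietic progenitors in the bone marrow, stood at 1063 (1046 to 1080) against 272 (255 to 289), a log2 ratio of 1.97 (1.87 to 2.06), and had a UMI in 96.7% of the cells. *Cxcl5* and *Cxcl12* differed in their spread over cells, since *Cxcl12* had quartiles of 4.19 and 16.7 UMIs per 10000 while *Cxcl5* had a UMI in 71.1% of the cells and a lower quartile of 0. *Ccl2*, the CCR2 ligand that draws monocytes, stood at 1113 against 474, a log2 ratio of 1.23 (1.16 to 1.31). *Cxcl14*, the most abundant chemokine gene of these cells, stood at 4075 against 2183 (log2 ratio 0.90), and *Cxcl1*, another CXCR2 ligand, at 1596 against 867 (log2 ratio 0.88), both short of 2-fold. *Cxcl13*, a ligand of the B cell receptor CXCR5, had 937 UMIs in 6.33% of the fibroblasts and none in the tenogenic-high cells. With 3 UMIs over the group taken as the floor it was 79.1-fold higher. Its UMIs lay in few cells, so that value is no lower limit. The other genes past 2-fold were *Ccl19* at 13.6 against 6.57 and *Ccl20* at 6.65 against 2.74.

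Of 12 listed acute phase and complement genes, 3 were at least 2-fold higher than in the tenogenic-high cells and 2 at least 2-fold lower. Of the 3, *C2* reached the minimum only through the fibroblasts low in tenogenic markers. *Saa3* (chr7:46711998-46715700), which encodes an extrahepatic serum amyloid A, stood at 2280 CPM (2256 to 2305) against 485 (462 to 508), a log2 ratio of 2.23 (2.16 to 2.30) that was 0.89 with the tenogenic threshold at 2, 2.97 with cells weighted equally and 3.61 with the collagen threshold at 2%. It had a UMI in 50.6% of the fibroblasts and the highest 10% of the cells held 75.3% of its UMIs, so its pooled level was set by a minority of cells. The immune cells had a *Saa3* UMI in 24.9% before thinning and in 11.6% after, against 34.2% of the fibroblasts after thinning. Complement factors *C2* (22.0 against 3.83, log2 ratio 2.52) and *Cfb* (23.0 against 6.29, log2 ratio 1.87) were past 2-fold, while *C3*, the central complement component, stood at 260 against 147 (log2 ratio 0.83). *Lcn2*, which encodes the iron-siderophore binding protein lipocalin 2, went the other way at 163 against 416 (log2 ratio -1.35, or -0.55 with the collagen threshold at 2%), as did *Saa1* at 14.2 against 52.5, though not when collagen and decorin had to reach 2% of the UMIs (log2 ratio 0.01).

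Among 21 cytokine and growth factor genes, 9 were at least 2-fold higher and 2 at least 2-fold lower, but *Csf3*, *Tslp* and *Fgf10* of the 9 reached the minimum only through the fibroblasts low in tenogenic markers. *Il6* stood at 198 CPM against 76.9 (log2 ratio 1.36, 1.19 to 1.55), the macrophage growth factor *Csf1* at 118 against 57.5 (1.04), and the granulocyte growth factor *Csf3* at 12.7 against 1.92 (2.73, 1.65 to 4.06). *Kitl*, which encodes stem cell factor, stood at 37.3 against 9.03 (2.05), and *Fgf7*, a growth factor for epithelium, at 141 against 54.4 (1.37). *Tslp*, an epithelial and stromal alarmin, had 37 UMIs against 1, a log2 ratio of 3.23 whose interval ran from 0.66 to 8.57 and which was -0.0052 with the tenogenic threshold at 2. *Fgf10* had 32 UMIs against 1. The remaining genes past 2-fold were *Il11* (56.5 against 26.8, but with a log2 ratio of -0.31 once 1 UMI each of *Ptprc* and *Cdh5* was allowed), *Angpt1* (42.6 against 15.6), and, in the lower direction, *Igf1* (295 against 628, log2 ratio -1.09) and *Pdgfa* (19.1 against 42.4). *Igf1*, which encodes insulin-like growth factor 1, was still the most abundant gene of this list.

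*Il1rl1*, which encodes the interleukin-33 receptor ST2, stood at 310 CPM (301 to 319) against 124 (113 to 136), a log2 ratio of 1.32 (1.18 to 1.46) that was 3.66 with the collagen threshold at 2%, where its level was 186. *Il1r1*, the signaling receptor for interleukin-1, stood at 222 against 105 (1.08). *Il1rap*, the accessory chain shared by both receptors, stood at 16.9 against 3.56 (2.25, 1.45 to 3.18), below the 44.3 of immune cells. Of 21 listed receptor genes, 4 were at least 2-fold higher, the fourth being *Il17ra* (46.0 against 19.4), and 1 was lower (*Tlr2*, 10.2 against 27.6). Of the 4, *Il1rap* reached the minimum only through the fibroblasts low in tenogenic markers. The 13 NF-kB feedback genes and the 16 immediate early genes had no member past 2-fold in either direction. Over all genes only 5.29% were higher and 3.74% lower, so nothing is read from these counts. *Nfkbia*, the NF-kB inhibitor that NF-kB itself induces, stood at 667 against 677, and *Fos*, which is also induced by tissue dissociation, at 728 against 1129. *Il33*, the ligand of ST2, stood at 136 against 112.

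Genes of the hyaluronan system followed. *Tnfaip6*, whose product TSG-6 binds hyaluronan and pentraxin 3, stood at 572 CPM against 253 (log2 ratio 1.18, 1.08 to 1.28). The hyaluronan synthase gene *Has2* stood at 124 against 51.7 (1.26) and *Cemip*, whose product degrades hyaluronan, at 20.6 against 7.93 (1.38, or 0.26 with the tenogenic threshold at 2). These 3 of 9 genes were past 2-fold, and none was lower by as much.

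**Figure D3:**
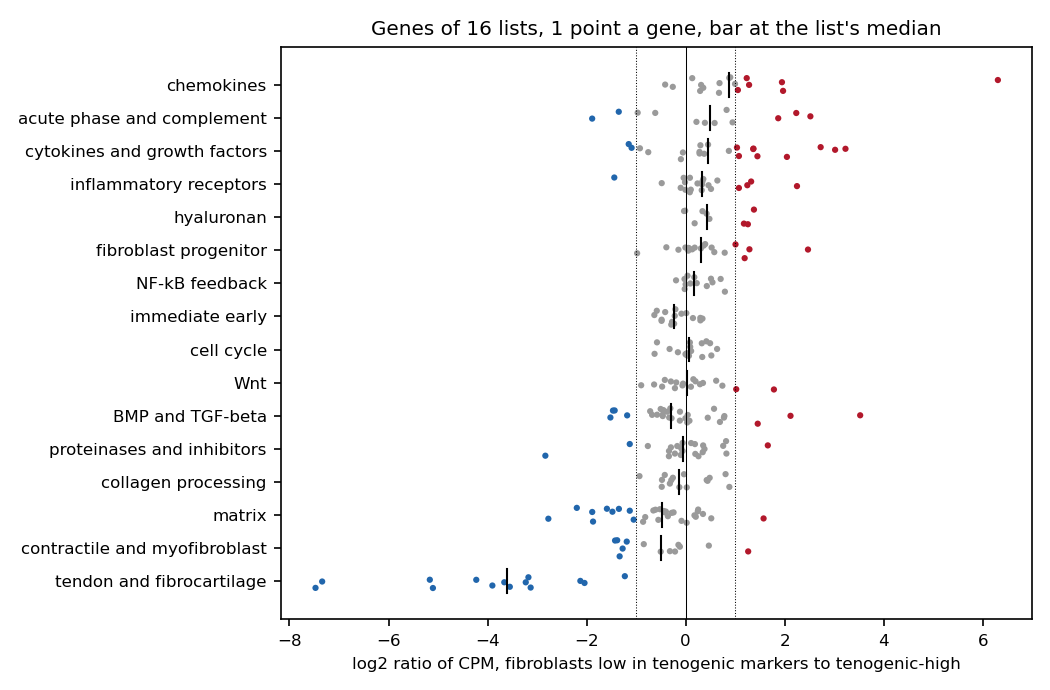
Log2 ratios of CPM between the fibroblasts low in tenogenic markers and the tenogenic-high fibroblasts for the genes of 16 lists with at least 20 UMIs, 1 point a gene (a gene at 0 UMIs is set at 3 UMIs), with a bar at the median of each list and dotted lines at 2-fold. Chemokines have their median at 0.88 and matrix genes at -0.48; nothing is read from the position of the tendon and fibrocartilage genes, some of which passed the minimum only through the tenogenic-high cells.

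Genes of fibroblast progenitors were higher in part. *Pi16* (chr17:29317680-29330593), which encodes a peptidase inhibitor and marks fibroblasts found around vessels and in fascia of many organs, stood at 129 CPM (123 to 135) against 23.3 (18.6 to 28.8), a log2 ratio of 2.47 (2.16 to 2.80). It had a UMI in 42.0% of the fibroblasts, and its highest 10% of cells held 72.4% of the UMIs. Of 19 listed progenitor genes, *Pi16*, *Dpp4* (11.4 against 4.65), *Hic1* (28.1 against 12.3) and *Thy1* (136 against 67.9) were at least 2-fold higher and none was lower by as much. *Dpp4* reached the minimum only through the fibroblasts low in tenogenic markers. The ratio of *Thy1* was near the threshold, with a log2 ratio of 1.01 and an interval of 0.82 to 1.20. *Ly6a*, which encodes the stem cell antigen Sca-1, stood at 1050 against 958, *Cd34* at 116 against 88.1, and *Tppp3*, a marker of tendon sheath cells, at 26.7 against 35.0 (log2 ratio -0.39, -0.68 to -0.09). Among 18 transcription factor genes of limb and skeletal tissue, *Twist2* (48.6 against 17.0) and *Osr1* (34.5 against 10.1) were past 2-fold higher, and *Meox1* (1.94 against 9.58) and *Sox6* (8 UMIs against 17) past 2-fold lower. The chondrogenic factor gene *Sox9* stood at 31.1 against 48.7 and the osteogenic factor gene *Runx2* at 14.5 against 14.8.

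Among genes of the BMP/TGF-β family, *Gdf10*, a TGF-β family ligand, stood at 90.2 CPM against 20.8 (log2 ratio 2.12, 1.78 to 2.47, or 3.70 with the collagen threshold at 2%). *Tgfb3* (28.3 against 81.0, -1.52) and *Bmp2* (15.9 against 36.1, -1.18) were lower. *Grem1*, which encodes the BMP antagonist gremlin 1, had 65 UMIs against 6, but a log2 ratio of -0.24 with the tenogenic threshold at 2. Of 30 genes of this family, 3 were past 2-fold higher and 4 past 2-fold lower, the latent TGF-β binding protein genes *Ltbp1* and *Ltbp2* among them. Of 18 Wnt pathway genes, which did not include *Sfrp2*, *Rspo3* (25.4 against 7.39, log2 ratio 1.78) and *Wnt5a* (28.9 against 14.2, 1.02) were past 2-fold, both encoding ligands or enhancers of Wnt receptors, while *Wisp2* (298 against 178, 0.74), the most abundant of the list, was not. With so few genes past 2-fold, nothing about either family is read from these counts.

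Of 15 genes in a tendon and fibrocartilage list that left out the 4 rule genes, 14 had enough UMIs for a ratio to the tenogenic-high fibroblasts. Some of them, *Mkx* among these, passed the minimum only through the tenogenic-high cells and so had to be lower, and no count is read from the list. Against all other tendon cells, 2 of the 15 were at least 2-fold higher, 6 at least 2-fold lower and 7 in between. Over all genes in that comparison, 12.6% were higher and 23% lower. *Scx* (chr15:76457452-76459458) stood at 3.25 CPM (2.39 to 4.33) against 112 (101 to 123), 34.4-fold lower, and was found in 6.58% of cells against 60.2% without thinning. *Comp*, which encodes cartilage oligomeric matrix protein, stood at 35.8 against 671 (log2 ratio -4.23) and *Cilp*, a cartilage intermediate layer protein, at 56.6 against 716 (-3.66). *Angptl7*, which encodes a secreted angiopoietin-like protein, stood at 7.20 against 259 (-5.17), the fibrillar collagen gene *Col11a1* at 16.3 against 191 (-3.55), and *Acan*, which encodes the cartilage proteoglycan aggrecan, at 3.46 against 57.2 (-4.05). The tendon transcription factor gene *Mkx* had 14 UMIs against 53.

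Matrix genes were split between shared and lower members. Of 30 matrix genes, 9 were at least 2-fold lower than in the tenogenic-high cells and 1 at least 2-fold higher, with a median log2 ratio of -0.48. The lower ones were led by *Mgp*, which encodes an inhibitor of calcification, at 563 CPM against 3844 (-2.77), *Col8a1* at 46.8 against 215 (-2.20), and *Aspn*, a proteoglycan of the lumican family, at 264 against 964 (-1.87). *Efemp1*, which encodes fibulin-3, was the higher one at 81.4 against 27.4 (1.57). *Sparc*, a collagen-binding glycoprotein and the most abundant gene of the list, stood at 5532 against 6551, and *Fbn1*, which encodes the microfibril protein fibrillin 1, at 805 against 680. No gene of the 15 for collagen processing and crosslinking was past 2-fold, *Lox* standing at 1072 against 1336. That count is near the shares over all genes, and nothing is read from it.

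Contractile and wound matrix genes leaned to the tenogenic-high side, with 5 of 13 at least 2-fold lower and 1 higher. *Postn*, which encodes periostin, stood at 1045 CPM against 2726 (log2 ratio -1.38), *Cthrc1* at 364 against 916 (-1.33), and the smooth muscle gene *Tagln* at 77.2 against 207 (-1.43). *Acta2*, which encodes smooth muscle actin, stood at 179 against 322 (-0.85), far from the 9304 of mural cells. *Tnc*, which encodes tenascin C, a matrix protein of injured tissue, was the exception at 663 against 276 (1.26, 1.17 to 1.36), a ratio that was 0.40 with the tenogenic threshold at 2. Among 23 proteinase and inhibitor genes, *Adamts15* was past 2-fold higher, and the collagenase gene *Mmp13* (8.45 against 60.2, -2.83) and the stromelysin gene *Mmp3* (796 against 1741, -1.13) past 2-fold lower. *Timp1*, which encodes an inhibitor of these proteinases and was the most abundant of the list, stood at 4054 against 4982 (-0.30). The level and the thinned share of *Mmp3* went in opposite directions, with 38.8% of cells holding a UMI against 30.1%.

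*Prg4* (chr1:150449412-150466165), which encodes lubricin, the lubricant of gliding surfaces, was the seventh most abundant gene of the fibroblasts at 6326 CPM, against 10334 in the tenogenic-high cells. Its level rested on few cells: without the 9 cells of the smallest cluster described below it was 2940.5. That moved the log2 ratio from -0.71 to -1.81, with no cell taken from the tenogenic-high group. *Fn1*, which encodes fibronectin, likewise stood at 885 with and 690 without those cells, against 1832. The other genes among the 10 most abundant were *Gm42418*, *Fth1*, *Malat1*, *Col3a1*, *mt-Atp6*, *Rplp1*, *Rpl41*, *Col1a1* and *Rps2*. *Gm42418*, at 44136, overlaps ribosomal RNA sequence and its count is uncertain.

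Outside the lists, genes among the highest ratios to the tenogenic-high cells, of those with at least 100 UMIs over both groups that were detected in 10% or more of the group holding more of them, were *Car4*, *Fmo2*, *Irx1*, *Sdpr*, *St6galnac5*, *Plac8*, *Depdc5*, *Stc1* and *Gpr176*. All of these genes reached the minimum of 100 UMIs only through the fibroblasts low in tenogenic markers. *Car4*, which encodes a membrane carbonic anhydrase, had 580 UMIs (40.2 CPM) against none, 48.9-fold higher at the floor of 3 UMIs. *St6galnac5*, a sialyltransferase gene, had 128 against none, 10.8-fold higher at that floor. The highest 10% of cells held 92.1% of the *Car4* and 83.6% of the *St6galnac5* UMIs, so these folds are no lower limits. *Plac8* was the most abundant of the genes named at 169 against 17.2 (log2 ratio 3.29, 2.93 to 3.68), although the other tendon cells together held more of it, 366. They also held more *Sdpr* (46.4 against 13.4) and *Stc1* (8.59 against 7.06). Mural cells held more *St6galnac5* (18.0 against 8.86) and *Gpr176* (27.0 against 6.86). *Car4*, *Fmo2*, *Irx1* and *Depdc5* stood lower in the other tendon cells and in the mural cells. Within the same limits, the 10 lowest were *Angptl7*, *Scx*, *Cox4i2*, *Comp*, *Acan*, *C1qtnf3*, *Col8a2*, *Kcnma1*, *Cilp* and *Col11a1*, of which *C1qtnf3*, which encodes a secreted collagen-like cytokine, stood at 18.7 against 297. Of the 10 lowest, *Scx*, *Cox4i2*, *Acan*, *Col8a2* and *Kcnma1* reached the minimum of 100 UMIs only through the tenogenic-high cells. None of 18 cell cycle genes was past 2-fold, and the proliferation marker *Mki67* stood at 121 against 120. Over all genes only 5.29% were higher and 3.74% lower, so the count is not read as a result about this list.

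The 488 cells were also ordered by their tenogenic sum instead of split at the threshold. From cells with no tenogenic UMI (260 cells), through cells with above 0 to below 1 (79), 1 to below 5 (56) and 5 to below 20 (41), to cells with 20 to below 100 UMIs per 10000 (46), *Cxcl12* stood at 1153, 955, 853, 332 and 237 CPM. *Ptx3* stood at 782, 745, 658, 422 and 155, and *Pi16* at 157, 89.2, 74.6, 39.0 and 13.0 over the same bins. For these 3 genes the level was lower in each successive bin, whereas *Sfrp2* stood highest in the second bin (308, 422, 344, 230 and 97.9). *Cxcl5* stood at 1146 in the fourth bin and stood at 126 in the fifth. *Saa3*, in contrast, stood at 2062 just below the threshold and at 566 just above it. *Cilp* (45.3, 56.6, 105, 439 and 806) and the transcription factor gene *Scx* (1.79, 2.93, 10.1, 48.0 and 140) were higher in each successive bin, and *Mgp* stood at 446, 793, 690, 2853 and 3710. *Tnc* did not follow them, at 641, 696, 705, 246 and 312. Median depth over these bins lay between 32132 and 37479 UMIs per cell. A sixth bin, of 100 and more, held only 6 cells, and no trend was read from it.

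**Figure D4:**
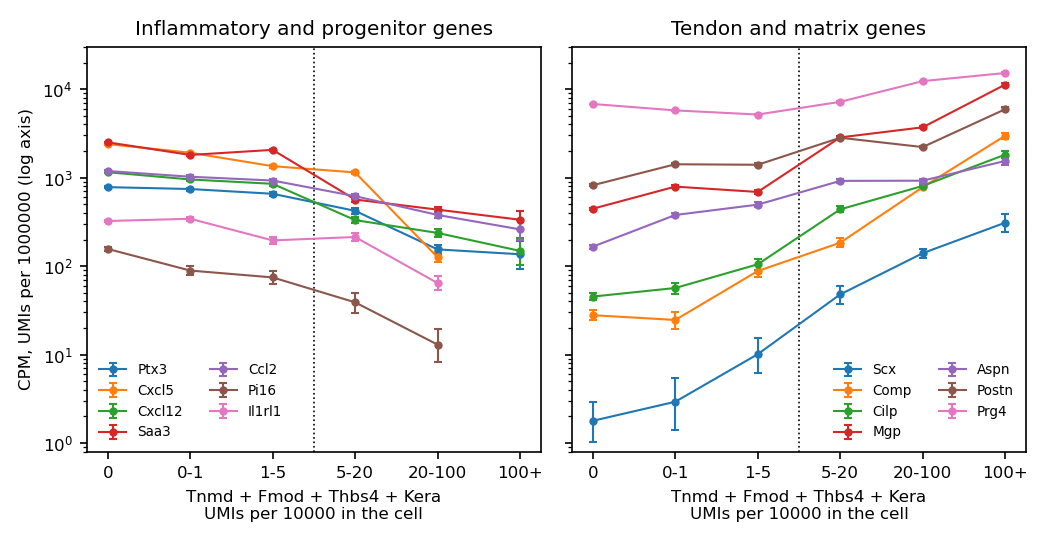
Levels in CPM (log axis) of 7 inflammatory, progenitor and receptor genes (left) and 7 tendon and matrix genes (right) in 6 bins of the summed *Tnmd*, *Fmod*, *Thbs4* and *Kera* UMIs per 10000 of the cell; bars are exact Poisson 95% intervals, the dotted line is the threshold of 5, a bin at 0 UMIs is not drawn, and the last bin holds 6 cells. *Cxcl12* goes from 1153 in the first bin to 237 in the fifth, while *Cilp* goes from 45.3 to 806.

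Compared with all other tendon cells that passed the filter, the fibroblasts were set apart by connective tissue genes. Of 15355 genes with at least 20 UMIs, 1938 (12.6%) were at least 2-fold higher and 3537 (23%) at least 2-fold lower. The rule chose for collagen, so this contrast is a description of what a fibroblast in this tissue held. At least 2-fold higher were 25 of 30 matrix genes, 13 of 15 collagen processing genes, 16 of 19 progenitor genes, 10 of 12 acute phase and complement genes, and 13 of 21 Wnt pathway genes. Chemokines were mixed, with 9 of 17 higher and 4 lower: *Cxcl12* was 7.97-fold and *Cxcl14* 8.17-fold higher, while *Cxcl2*, a CXCR2 ligand made by neutrophils and macrophages, stood at 391 against 3100. Of 10 interferon-induced genes, 9 were at least 2-fold lower, with a list sum of 120 against 383, but the sum differed between the clusters of these fibroblasts described below and was 388 in cluster 2. Under the same detection limits as above, the 10 genes with the highest ratios were *C7*, *Serpina3c*, *Clec3b*, *Dpep1*, *Sfrp2*, *Angpt4*, *Tspan11*, *Saa3*, *Tmeff2* and *Xpnpep2*. The complement gene *C7* stood at 13.2 against 0.899, *Dpep1*, which encodes a membrane dipeptidase, at 102 against 8.13, and *Clec3b*, which encodes tetranectin, at 102 against 7.95. *Sfrp2* was 12.4-fold and *Ptx3* 9.58-fold higher.

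Mural cells, the contractile cells of vessel walls, were the other stromal group. They were taken as the 45 cells with *Rgs5* at 5 or more UMIs per 10000, a *Pdgfrb* UMI, and none of *Pdgfra*, *Ptprc* or *Cdh5*. Against them, 14.7% of 11726 genes were at least 2-fold higher in the fibroblasts and 10.6% at least 2-fold lower. Of 30 matrix genes, 21 were higher and 4 lower, and of 14 contractile genes 4 were higher and 7 lower. *Cxcl14* stood at 4075 against 4.49, whereas *Cxcl1* (1596 against 1730) was close and *Il6* (198 against 455) was lower in the fibroblasts.

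The 395 fibroblasts were not uniform. When they were clustered without any of the listed genes, 5 clusters were found. Unlisted genes of the same programs, such as *Kif11* and *Ifi203*, were not left out. The levels of the listed genes therefore describe the clusters and are no independent check of them. Cluster 1 (139 cells, 35.2%, median 51091 UMIs) was led, by ratio to the other clusters, by the histone and mitotic genes *Hist1h2ab*, *Kif2c*, *Hist1h1b*, *Kif11* and *E2f8*. Cluster 2 (115 cells, 29.1%, median 28143) was led by *Ifit3*, *Cxcl13*, *Ifit1*, *Vtn* and *Ifi203*, cluster 3 (88 cells, 22.3%, median 21580) by *Cd200*, *Fmo2*, *Ifitm1*, *Sfrp4* and *Kcnj8*, and cluster 4 (44 cells, 11.1%, median 27130) by *Col23a1*, *Cxcl3*, *Crabp1*, *Camp* and *Cck*. Cluster 5 (9 cells, 2.28%, median 37310) was led by *F13a1*, *Slpi*, *Matn4*, *Pla1a* and *Fbln7*, and was left without a name. Of these leading genes, *Ifit3*, *Ifit1*, *Cxcl13*, *Sfrp4*, *Kcnj8* and *Cxcl3* were listed genes that took no part in the clustering. The depth of cluster 1 was the highest, and its part in the differences below was not tested.

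The cell cycle list summed to 2081 CPM in cluster 1 and 1371 in cluster 5, against 204 to 680 in clusters 2 to 4. *Mki67*, a gene of proliferating cells, stood at 216 in cluster 1, 150 in cluster 5 and 7.8 to 23 in clusters 2 to 4. After thinning it was found in 27.3% (20.1 to 35.5) of the cells of cluster 1, in at most 1.19% of clusters 2 to 4 and in 0 of the 9 cells of cluster 5, whereas *Top2a* was found in 3 of those 9 (33.3%, 7.49 to 70.1) and in 28.1% of cluster 1. Cluster 1 held the highest *Ptx3* level of the 5 clusters (903) and a high *Il1rl1* level (468), with *Cxcl5* at 2861. Cluster 2 held the highest sum of the interferon-induced list, 388 against 28.1 to 63.1 in the other clusters, and *Isg15*, *Irf7*, *Ifit1* and *Ifit3* of that list were among its 10 leading genes. Before thinning they had a UMI in 28.7%, 27.0%, 20% and 13.9% of its cells, respectively, so each was found in a minority. Cluster 2 also held the highest levels of several progenitor and complement genes. *Sfrp2* stood there at 891 against 87 to 244 in clusters 1, 3 and 4, *C3* at 829 against 59 to 263, *Pi16* at 312 against 66 to 150, and *Cd34* at 225 against 62 to 114. The highest *Postn* level (2550) and the lowest *Cxcl5* level (574) of clusters 1 to 4 were found there, and *Dpp4* stood at 31.3 against 8.6 or less elsewhere. Cluster 3 was marked by *Gdf10* at 327 against 60 or less elsewhere and by *Mgp* at 1791, and had the lowest *Ptx3* level among clusters 1 to 4 (423). The mural cell markers summed to 128 in cluster 3 against 22.4 to 30.4 in clusters 1, 2 and 4, and *Kcnj8*, one of them, was among its leading genes, so mural transcripts moved with this cluster and their part in the result was not tested.

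Cluster 4 carried the highest levels of several genes for secreted inflammatory proteins. *Saa3* stood at 7904 CPM against 1625 to 2178 in clusters 1 to 3, *Cxcl5* at 4626, *Cxcl14* at 6432, *Il6* at 377, *Timp1* at 8794 and *Tnc* at 2747, and the chemokine list summed to 16796 against 8316 to 11885 in clusters 1 to 3. *Camp*, which encodes a granule protein of neutrophils and was not a listed gene, was among its leading genes. It stood at 76.4 in cluster 4, with a UMI in 38.6% of the cells. *S100a8* stood at 35.1 against 15.3 to 20.3 in clusters 1 to 3, and the neutrophil list summed to 68.6 against 45.1 to 56.0. The source of the *Camp* UMIs and the part of neutrophil transcripts in the result were not tested. Cluster 5 had no UMI of *Sfrp2*, *Cxcl5*, *Cxcl14*, *Ccl2* or *Cd34*, its chemokine sum was 441, and *Prg4* stood at 156015, with *Fn1* at 9521. *Col22a1*, a collagen gene of tissue junctions, had UMIs in all 9 of its cells and in none of the other 386. These 9 cells met the rule but, of the label markers it did not use, they had no *Sfrp2* UMI and low *Ptx3* (28.2), while *Lum* stood at 326.

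**Figure D5:**
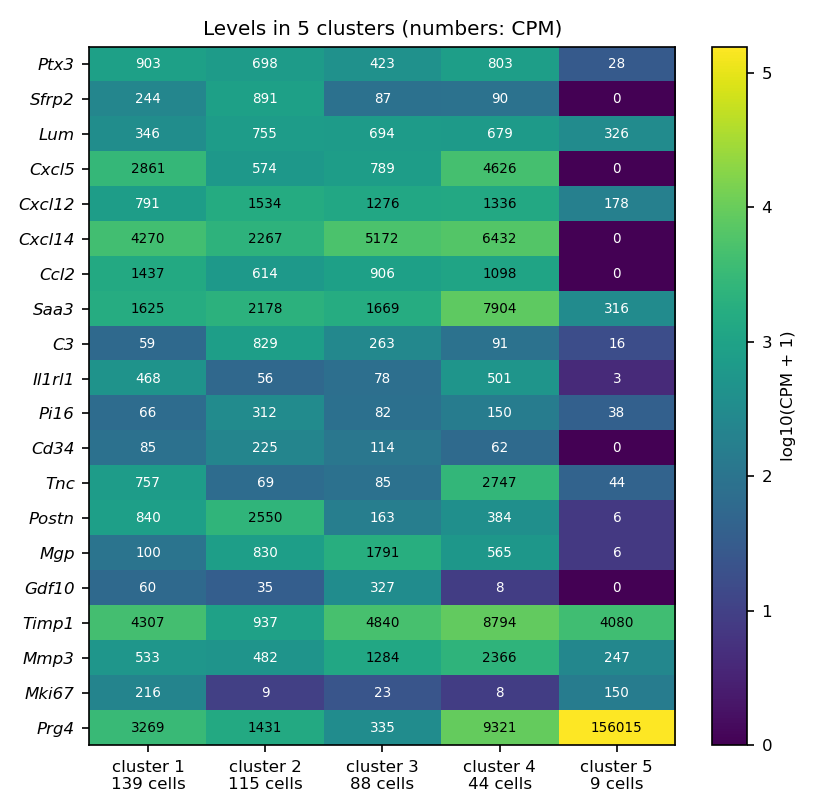
Levels of 20 listed genes in CPM (numbers; colors show log10 of the value plus 1) in the 5 clusters of the fibroblasts, which were made without these genes. *Sfrp2* and *C3* are highest in cluster 2 (891 and 829), *Gdf10* in cluster 3 (327), *Saa3* in cluster 4 (7904), and *Prg4* in cluster 5 (156015).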

How the data were processed

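The authors deposited filtered UMI counts per gene and cell barcode for 3 libraries, for which the file headers name Cell Ranger 5.0.1 and the submitters' processing notes mm10. These counts are not normalized. Gene positions were taken by Ensembl identifier from the GRCm38 annotation (27645 of 27998 identifiers matched). Counts were read with Python 3.11.15 and scipy 1.17.1. Cells had at least 200 genes and at most 20% mitochondrial UMIs, which left out 651 of 5629 tendon injury barcodes. Doublets were not removed. Scrublet marked 0 of 4978 cells by its automatic threshold, so removal of the 198 highest scores was an alternative.

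UMIs were summed over the cells of a group and divided by their total. With 1 library per tissue no test or p-value was computed. A gene was counted as different when its ratio was at least 2-fold, with at least 20 UMIs in both groups together. Intervals are exact Poisson, binomial-split or Clopper-Pearson at 95%. A floor is 3 UMIs over the group, or 3 cells for a share of 0. For shares of cells, every cell was thinned to 2000 UMIs, and 6 of the 395 fibroblasts were too shallow for this. Clustering in scanpy 1.11.5 used 2000 variable genes without listed genes, 20 principal components, 15 neighbours and Leiden resolution 0.5. The intervals of the ratios were tested on simulated pooled counts with known changes. That simulation held no single cells, so it did not cover thinning, clustering or the spread of UMIs over cells.

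The fibroblasts and the 37 gene lists were chosen with earlier results of these data known. Named genes were those of the rule and label, in each list the most abundant genes and those with the largest ratios, the 10 most abundant genes, the 10 largest ratios in a comparison, and 5 leading genes per cluster. Others, such as *Nfkbia*, *Fos*, *Sox9*, *Runx2*, *Isg15*, *Irf7*, *Il33*, *Sp7*, *Tppp3*, and members that completed a count, were chosen after their values were seen. 1 gene that these rules name is not reported here.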

Additional observations from a re-analysis of the deposited data

How the results depend on the processing

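The share of tendon injury cells that were fibroblasts low in tenogenic markers (7.93%) became 8.83% when cells needed at least 1000 genes and 4.74% when collagen and decorin had to reach 2% of the UMIs. The counts against tenogenic-high fibroblasts (627 higher, 443 lower) became 221 and 184 with a minimum of 100 UMIs, and 3531 were lower with no minimum. Against all other tendon cells (1938 higher, 3537 lower), 3247 were higher with cells weighted equally and 5309 with no minimum. Thinned shares depended on depth by construction: *Ptx3* was found in 34.3% of cells at 1000 UMIs and in 66.7% at 5000, and *Sfrp2* in 16.5% and 35.7%. The 5 clusters became 2 at resolution 0.3 (adjusted Rand index 0.43), 8 at 0.8 (0.40), and 6 with the listed genes kept (0.57).

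Of 1402 log2 ratios to tenogenic-high fibroblasts over 108 named genes and their alternatives, 1117 moved by less than their counting interval, 279 by more, and 6 that had been past 2-fold changed sign. Of 1296 ratios to all other tendon cells, 832 moved by less, 461 by more, and 3 that had been past 2-fold changed sign. Sign changes of smaller ratios are among those that moved by less or by more. Of 1080 levels, 782 moved by less and 298 by more. The ratios to tenogenic-high fibroblasts that changed sign from past 2-fold were as follows. *Saa1* had a log2 ratio of 0.0078 with the 2% collagen threshold. With the tenogenic threshold at 2, *Grem1* had -0.24, *Tslp* -0.0052 and *Rgs5* -0.55. *Hbb-bs* had 3.57, set at the floor of 3 UMIs, with the tenogenic threshold at 10. *Il11* had -0.31 with 1 UMI each of *Ptprc* and *Cdh5* allowed. With the 2% collagen threshold the ratios of *Cxcl5* (1.94), *Gdf10* (2.12) and *Il1rl1* (1.32) were 2.55, 3.70 and 3.66, and that of *Cxcl5* was 1.32 with the tenogenic threshold at 2. Without the smallest cluster the fibroblasts had 0 UMIs of *Col22a1*, so no ratio to tenogenic-high cells could be given. Its log2 ratio to all other tendon cells was -2.06 when set at the floor of 3 UMIs. Against all other tendon cells, *Col22a1* changed to -0.24 with the 2% collagen threshold, where *Grem1* changed to -0.55. The causes were not tested, apart from *Col22a1*, whose UMIs lay in the smallest cluster. The leaving out of that cluster was chosen after seeing the data. Removing the highest doublet scores took out 18 of the 395 fibroblasts (4.56%) and 4 tenogenic-high cells. Median-of-ratios scaling moved the median gene by 0.04 on the log2 scale against tenogenic-high fibroblasts and by 0.12 against all other tendon cells, so ratios of the second kind are relative to that shift.

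No paired analysis was possible because each tissue had 1 library. The 93 tenogenic-high cells limit the low genes: at 3655101 UMIs, the floor of 3 UMIs over the group was 0.821 CPM.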
